A study of Mus musculus with 3 samples.

Results

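A set of 8 genes of the melanocyte lineage (Mitf, Sox10, Kit, Tyr, Tyrp1, Dct, Pmel and Mlana) was examined as a check for pigment cells in sorted hair follicle stem cells (HFSCs). They were listed by name and make up 8 of the 21851 protein-coding genes with a protein-coding transcript in the annotation. For each gene and library, peaks were taken within 1500 bases of a start site, called promoter peaks here, and from 20 kb before the gene to its end, called the gene window. Open chromatin was profiled with Omni-ATAC-seq, a method based on cutting of accessible DNA by Tn5 transposase, in 3 libraries of HFSCs sorted from dorsal skin as CD34+ CD49f+ Sca-1- cells. All mice were 6 months old and untreated, with follicles in telogen, when hairs rest. The 2 Msx2-KO libraries came from mice in which a neo cassette interrupts the homeobox gene Msx2 in all cells, and the 1 Msx2-WT library from wild-type mice, for which the methods name hair cycle-matched C57BL/6J animals. How many mice went into each library is not given in the sources used here. The libraries are called WT, KO replicate 1 and KO replicate 2 below.

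Melanocyte stem cells sit in the bulge of the hair follicle, directly beside the HFSCs, and give rise to the pigment cells of each new hair. SOX10 and MITF are the transcription factors that define the lineage, and the receptor KIT carries the survival signal of these cells. MITF binds an E-box with the core CATGTG, in its longer form the M-box TCATGTG, before the genes of the melanin enzymes TYR, TYRP1 and DCT and of the melanosome proteins PMEL and MLANA. Dct is switched on early in the lineage and serves as a marker of melanoblasts and melanocyte stem cells. Keratinocytes make no melanin themselves, and those of the growing hair shaft receive it from mature melanocytes of the hair bulb.

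Since the batch label of the WT library differs from the one shared by the KO libraries, effects of genotype cannot be told apart from those of batch, and with a single WT library the genotypes were not tested against each other. In the KO lists the peaks are named with the letters cKO, and those of replicate 1 with another library number than its label. The labels were followed. A peak passed the limit at a −log10 q above 2.0, which left 33654 summits in WT, 19450 in KO replicate 1 and 41091 in KO replicate 2. Tag numbers are the extended reads piled up at a summit, solved from the deposited values. In these bulk libraries fewer cells of a type and less accessibility per cell cannot be told apart. The commonest local background, a measure of depth, was 1.74 tags in WT, 0.476 in KO replicate 1 and 0.79 in KO replicate 2. The lowest tag number past the limit was 9, 5 and 6 in the same order, so a weak site could pass with fewer tags in the KO libraries. Over the background these numbers were 5.18, 10.5 and 7.59 times, so a site had to stand higher over it to pass there. Intervals below are 95% Poisson intervals of the tag number and cover counting error only. Duplicate reads were retained, so tags are not independent molecules and the intervals may be too narrow even for that error.

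The sequences before the start sites show where the MITF core lies in the genes of the melanin enzymes. The 250 bases before the Dct start and the 250 bases before the outermost Mitf start are shown because summits fell in them, and those before the innermost Mitf start, known for the melanocyte form of MITF, because none did. Stretches of 47 bases around the M-box of Tyr and of Tyrp1 are set beside them. All are RefSeq sequence of GRCm38.p6, printed 5′ to 3′ on the strand of the gene, with each CATGTG or its reverse complement in capitals.
Dct, chr14:118052247-118052496, minus strand: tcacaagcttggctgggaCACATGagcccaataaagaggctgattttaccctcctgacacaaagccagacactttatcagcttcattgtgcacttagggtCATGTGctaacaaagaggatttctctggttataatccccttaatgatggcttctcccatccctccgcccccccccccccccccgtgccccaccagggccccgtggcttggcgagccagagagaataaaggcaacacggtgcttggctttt
Tyr, chr7:87493508-87493554, minus strand: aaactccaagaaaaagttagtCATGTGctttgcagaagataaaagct
Tyrp1, chr4:80834146-80834192, plus strand: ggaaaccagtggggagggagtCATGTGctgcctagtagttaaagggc
Mitf outermost start, chr6:97806808-97807057, plus strand: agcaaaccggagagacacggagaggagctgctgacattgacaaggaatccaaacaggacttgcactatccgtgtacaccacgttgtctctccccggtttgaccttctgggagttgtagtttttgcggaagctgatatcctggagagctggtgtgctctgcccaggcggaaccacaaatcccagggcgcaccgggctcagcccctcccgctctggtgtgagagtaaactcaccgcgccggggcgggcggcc
Mitf innermost start, chr6:97991533-97991782, plus strand: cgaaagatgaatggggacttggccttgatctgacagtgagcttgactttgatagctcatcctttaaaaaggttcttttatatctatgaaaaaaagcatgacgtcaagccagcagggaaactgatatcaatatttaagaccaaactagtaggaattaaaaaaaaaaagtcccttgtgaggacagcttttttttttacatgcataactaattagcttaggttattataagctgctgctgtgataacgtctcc

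The RefSeq promoter table holds 300 bases per start and matched 5 of the 8 genes, without Sox10, Pmel and Mlana. The 7 letters TCATGTG were found, on either strand, in the Dct, Tyr and Tyrp1 promoters and in 3.77% of all 32851 promoters in the table. Dct held 2 matches, which began at -232 and -151 bases from the RefSeq start, and Tyr and Tyrp1 held 1 each, at -22 and -47. The RefSeq start of Dct is 118052246, upstream of the Dct-201 start (118052185) from which the Dct summits below are placed. Positions of letters and of summits at Dct are thus on different scales. The shorter core CATGTG, which every TCATGTG contains, was in 14.2% of all promoters. The SOX-type letters ACAAAG were in 18.7% of them, and were found at -192 and -141 bases in Dct and at -190 in Tyrp1. A further SOX-type form, ACAATG, was in 12.6% of promoters and in the Dct promoter at -167. None of these 4 letter strings was found in the promoters of Kit or at the 3 Mitf starts in the table. A match is a description of the letters only.

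WT had promoter peaks at 3 of the 8 genes (Mitf, Dct and Pmel), KO replicate 1 at 2 (Dct and Pmel) and KO replicate 2 at 3 (Mitf, Dct and Pmel). Over all protein-coding genes the shares were 47.1%, 37.9% and 53.7% in the same order, compared with 37.5%, 25.0% and 37.5% of the melanocyte genes. With 8 genes, these counts were near the share of all genes. Dct and Pmel had a promoter peak in all 3 libraries, as did 35.2% of all genes, and Mitf in every library but KO replicate 1, as did 9.64%. The other 5 genes (Sox10, Kit, Tyr, Tyrp1 and Mlana) had none in any library, as did 43.8% of all genes. The plot of the strongest promoter summit shows these levels by library.

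**Figure D1:**
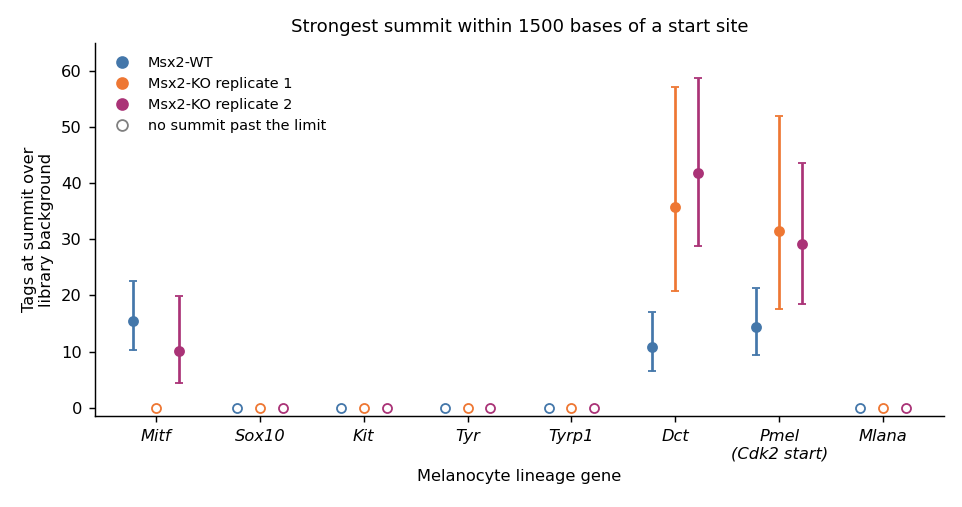
Tags at the strongest summit within 1500 bases of a start site, divided by the background of the library, for the 8 melanocyte genes. Points are single libraries with 95% Poisson intervals and open circles mark no summit past the limit. The strongest Dct summit reached 35.7 and 41.8 times the background upstream of the start in the KO libraries, and 10.9 times in intron 1 in WT. The median open promoter was also lower in WT (13.8 times) than in KO replicates 1 and 2 (27.3 and 26.6). The deposited fold of the Dct summit over its local background was 5.6 in WT, 6.17 in KO replicate 1 and 6.27 in KO replicate 2. The Pmel summit lies at the start of Cdk2.

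Most of these genes have promoters poor in CpG, a class that was less often open in these libraries. Within 500 bases of the outer start, 6 of the 8 genes had a CpG content under 0.5 of that expected from their bases, and Mitf (0.67) and Kit (0.68) were above it. Among the 10149 protein-coding genes with such a low-CpG promoter, the share with a promoter peak was 17.4% for WT, 12.4% for KO replicate 1 and 21.1% for KO replicate 2. Of the 6 low-CpG melanocyte genes, Dct and Pmel had a promoter peak in every library, and Sox10, Tyr, Tyrp1 and Mlana in none. Set against this class, 2 of 6 lay above the share in each library, so the order turned with the reference chosen, and 1 of the 2 peaks, that of Pmel, lies at the start of Cdk2. Kit, with the highest G+C content of the 8, had none either.

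Dct encodes dopachrome tautomerase, an enzyme of melanin synthesis, and spans 118012790 to 118052244 of chromosome 14 (minus strand). Its start was inside a peak in both KO libraries and in no WT peak. In KO replicate 1 the peak spanned 118051191 to 118052708, with 1 summit of 17 tags (9.9 to 27.2) at -181 bases from the start of transcript Dct-201 (118052185). In KO replicate 2 it spanned 118051049 to 118052791, with 3 summits. They held 33 tags (22.7 to 46.3) at -125 bases, 29 tags (19.4 to 41.6) at 185 bases, in the exon at the start, and 27 tags (17.8 to 39.3) at 851 bases, in intron 1. In WT the peak was confined to intron 1, from 118051059 to 118051476, with 1 summit of 19 tags (11.4 to 29.7) at 981 bases. The upstream summits of both KO libraries lay within the 250 Dct bases printed above, and the intron 1 interval was covered at least in part in every library. Wider KO intervals were not particular to Dct. The peak at the Cdk2 start measured 906 bases in WT, 1005 in KO replicate 1 and 1349 in KO replicate 2. At the outermost Mitf start the widths were 583 in WT and 1343 in KO replicate 2. The broad Mitf intron 1 region measured 2076, 1939 and 2079 bases in WT and KO replicates 1 and 2.

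**Figure D2:**
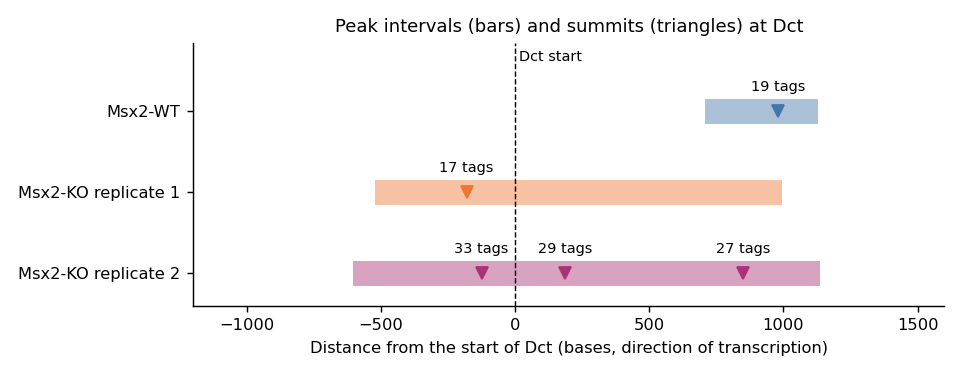
Peak intervals (bars) and summits (triangles, with tag numbers) around the start of Dct in each library, by distance in bases along the direction of transcription. The KO intervals cross the start, with upstream summits at -181 and -125 bases, and the WT interval begins downstream of it, with a summit at 981 bases.

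Within 500 bases of the Dct start no WT summit was listed at any level, although that library was 3.65 times as deep as KO replicate 1 by its background. At the level of KO replicate 1, 35.7 times the background, a WT summit would hold 62.1 tags, and at the 41.8 times of KO replicate 2 it would hold 72.6. The lowest tag number listed anywhere in WT was 5. Across the genome the WT library also had lower levels over its background: the median open promoter reached 13.8 times in WT, 27.3 in KO replicate 1 and 26.6 in KO replicate 2. Ranked within its own library, the strongest Dct promoter summit exceeded 34.1% of open promoters in WT, 64.6% in KO replicate 1 and 71.7% in KO replicate 2. That summit lay in intron 1 in WT and upstream of the start in the KO libraries. The local background at that summit was 2.57 tags in WT, 1.92 in KO replicate 1 and 4.42 in KO replicate 2. Its deposited fold, tags plus 1 over local background plus 1, was 5.6, 6.17 and 6.27 in the same order. By that measure the libraries were close to each other. A summit within 500 bases of a start in both KO libraries, with none listed in WT, was found for 190 of all protein-coding genes, or 0.87%. Of all these genes, 43.8% had no promoter peak in any library and could not show it. The share among genes with such a summit in both KO libraries was not computed. This pattern was singled out after its values were seen, and Dct was the melanocyte gene that showed it. The promoter peak of Dct remained in all 3 libraries at a −log10 q of at least 5 and with lists of equal length.

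The letters around each part of the Dct peak were counted. Within 100 bases of the upstream summits lay 1 TCATGTG in each KO library, compared with 2.43% of all summits in KO replicate 1 and 2.53% in KO replicate 2. The upstream summit of KO replicate 1 also held 2 ACAAAG and 1 ACAATG, and that of KO replicate 2 held 1 ACAAAG and no ACAATG. Around the summit at 185 bases in KO replicate 2 lay 3 CATGTG and no TCATGTG. Within 100 bases of the intron 1 summits lay no CATGTG and 1 ACAATG, in WT and in KO replicate 2 alike, compared with ACAATG at 8.67% and 9.96% of all summits of those libraries. The 121 reference bases around the WT summit are shown as the part of Dct with a WT summit. They were 52.1% G+C and read, on the strand of the gene and with no capitals because the core was not found, as follows.
Dct intron 1, chr14:118051144-118051264, minus strand: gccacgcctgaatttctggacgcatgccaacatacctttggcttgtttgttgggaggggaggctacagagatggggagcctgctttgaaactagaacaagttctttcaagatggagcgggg

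Further inside Dct, KO replicate 2 had a peak in intron 4 (118038691 to 118039662) with 7 tags (2.81 to 14.4). Summits that missed the limit were listed there in the other libraries, with 5 tags in WT and 4 in KO replicate 1. No other summit past the limit fell in the 59.5 kb window of Dct.

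Mitf encodes the transcription factor that directs melanocyte genes, and its start sites give forms with different first exons. The outermost start is used in many cell types, and the innermost gives the melanocyte form. The gene spans 97807052 to 98021349 of chromosome 6 (plus strand), with 6 annotated starts of protein-coding transcripts. At the outermost start WT had a peak (97806713 to 97807295) with 27 tags (17.8 to 39.3) at -101 bases, 15.5 times the background. KO replicate 2 had one (97806282 to 97807624) with 8 tags (3.45 to 15.8) at -77 bases, 10.1 times the background. In KO replicate 1 none was listed within 3000 bases of any Mitf start, and 15.5 times its background would be 7.39 tags. The level of KO replicate 2 would be 4.82 tags there, just under the lowest number past the limit (5) and above the lowest listed (3). Whether the KO libraries differ here cannot be told from so few tags. The Mitf promoter exceeded 56.1% of open promoters in WT and 8.36% in KO replicate 2, where it was lost at a −log10 q of at least 5 and with lists of equal length.

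At the melanocyte start no library had a summit, listed at any level, within 3000 bases. The annotated starts there are 97991792 and 97991921. The nearest summit past the limit was in KO replicate 2 at 98007501, in intron 7 of Mitf-202 and 15580 bases past the innermost start, with 11 tags (5.49 to 19.7). At an intermediate start, 97929799, WT had a weak peak with 10 tags (4.8 to 18.4) at -60 bases and a −log10 q of 3.03. The 250 bases printed above for the melanocyte start were 36.0% G+C, compared with 59.6% for the outermost start.

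Inside Mitf a broad region of intron 1 was open in all 3 libraries, about 20 kb past the outermost start. It spanned 97826245 to 97828320 in WT, 97826418 to 97828356 in KO replicate 1 and 97826358 to 97828436 in KO replicate 2. The strongest summit held 23 tags (14.6 to 34.5) in WT, 6 (2.2 to 13.1) in KO replicate 1 and 13 (6.92 to 22.2) in KO replicate 2. Over the background these were 13.2, 12.6 and 16.5, at 97826463, 97826694 and 97826923. This was the sole Mitf region shared by all libraries, and in KO replicate 1 it was the sole Mitf peak, with a −log10 q of 2.32, close to the limit, and was lost at a −log10 q of at least 5. Within 100 bases of the strongest WT summit lay 1 ACAAAG and no CATGTG. Within 100 bases of the strongest KO replicate 2 summit, and of a further WT summit at 97827141, lay 1 CATGTG each. None of the letter strings counted lay that near the KO replicate 1 summit. CATGTG was found at 12.0% of all summits in WT and 10.8% in KO replicate 2, and ACAAAG at 12.8% in WT. The 121 bases around the strongest WT summit were 43.0% G+C, held no CATGTG, and are shown because they lie in that shared region.
Mitf intron 1, chr6:97826403-97826523, plus strand: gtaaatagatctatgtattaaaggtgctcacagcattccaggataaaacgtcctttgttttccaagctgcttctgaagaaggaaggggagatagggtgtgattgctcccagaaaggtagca

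A further intron 1 site near 41.4 kb from the outermost start held 17 tags (9.9 to 27.2) in WT and 6 (2.2 to 13.1) in KO replicate 2, with none past the limit in KO replicate 1. Of the 10 separate regions in the Mitf window, 1 was in all 3 libraries, 2 were in every library but KO replicate 1, and 7 were in 1 library. Most regions of the gene were thus not shared.

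**Figure D3:**
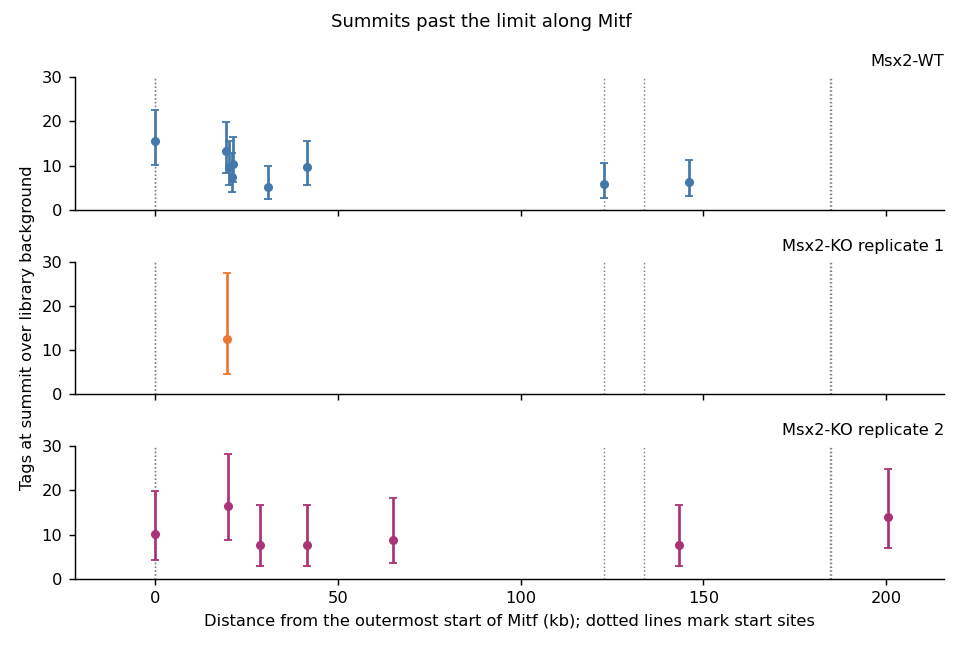
Summits past the limit along Mitf in each library, by distance in kb from the outermost start, with tags over the background of the library and 95% Poisson intervals. Dotted lines mark annotated starts. The cluster near 20 kb is present in every library, the outermost start has a summit in WT and KO replicate 2, and no summit stands at the innermost starts.

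Pmel encodes the fibril protein of the melanosome and spans 128704195 to 128720238 of chromosome 10 (plus strand). Its promoter peak coincided with the start of its neighbour Cdk2, a cell cycle kinase gene transcribed from the opposite strand. The summit held 25 tags (16.2 to 36.9) in WT, 15 (8.4 to 24.7) in KO replicate 1 and 23 (14.6 to 34.5) in KO replicate 2. It lay 76, 1 and 48 bases from a Cdk2 start and at -1152, -1227 and -1180 bases from the start of Pmel-201. In every library the summit was therefore nearer to Cdk2 than to the Pmel start, inside the annotated gene but outside its protein-coding transcript. The other peak of the Pmel window, with 63, 40 and 56 tags, lay 171, 160 and 63 bases from the start of Rab5b, which encodes an endosomal GTPase. With peaks near the start of another gene left out, Pmel had no peak in any library, and the promoter counts became 2, 1 and 2.

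The remaining 5 genes had no summit past the limit anywhere in their windows, in any library. The window of Sox10, whose product acts above MITF, measured 30.3 kb. The window of the receptor gene Kit measured 102.0 kb and that of Tyr, the rate-limiting melanin enzyme, 88.7 kb. Those of Tyrp1, a further melanin enzyme, and Mlana, a melanosome protein, measured 37.6 and 30.8 kb. A window without a summit in any library was found for 26.9% of all protein-coding genes. Below the limit, WT listed 3 summits for Sox10, 2 each for Kit, Tyr and Mlana and none for Tyrp1, with 5 to 7 tags. KO replicate 2 listed 4 summits each for Kit and Mlana and 1 for Tyrp1, with 3 or 4 tags, and KO replicate 1 listed none for these 5 genes. Of these, the summits nearest to a start were 5 tags at -377 bases of Sox10 in WT, and 4 tags at -339 bases of Kit and 3 tags at 199 bases of Tyrp1 in KO replicate 2. Signals of this size were at or near the lowest tag numbers listed, and openness in a small share of cells would not be detectable at this depth.

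Counted by window, 3 of the 8 genes had a summit past the limit in each library (Mitf, Dct and Pmel). The shares over all protein-coding genes were 64.3%, 52.6% and 69.0%, in the order used above. The 8 windows, 619.1 kb in all, held 12 summits in WT, 4 in KO replicate 1 and 13 in KO replicate 2. This came to 1.94, 0.646 and 2.1 summits per 100 kb, compared with 2.24, 1.28 and 2.52 over the windows of all genes. Mitf held 9, 1 and 7 of these summits, and without that gene the densities were 0.78, 0.78 and 1.56 per 100 kb.

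Other marker lists were counted in the same way to set these genes beside those of the sorted cells and of other cells of skin. Promoter peaks of the 14 HFSC and basal keratinocyte genes numbered 11 for WT, 9 for KO replicate 1 and 13 for KO replicate 2, above the share of all genes in each library. In KO replicate 1 this rested on weak peaks: at a −log10 q of at least 5 the count there was 2 of 14, below the 25.5% of all genes at that limit. Krt5, Krt14, Itga6, Lhx2, Sox9, Tcf7l1 and Foxc1 had one in all 3 libraries, and Nfatc1 in none. Krt15 and Cd34, the bulge keratin and the surface protein used in the sort, had one in every library but KO replicate 1. At Lhx2, a transcription factor of bulge cells, the summit stood at 19.0, 58.8 and 74.7 times the background in the same order. Each was above the highest Dct value of its library (10.9, 35.7 and 41.8). Lhx2 was the sole gene of the list above Dct in either KO library, with Tcf7l1 next at 33.6 and 35.4. In WT every listed gene with a promoter peak but Krt14 (9.78) and Cd34 (6.9) was above Dct.

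Of 10 other pigment cell genes, Erbb3 alone had a promoter peak, and it had one in all 3 libraries. This was 10.0% in each library, compared with 47.1%, 37.9% and 53.7% of all genes. Of the 10, 7 have low-CpG promoters, a class with shares of 17.4%, 12.4% and 21.1%. The 9 without were Slc45a2, Slc24a5, Oca2, Gpr143, Trpm1, Mc1r, Pax3, Ednrb and Gpnmb, which include melanosome transporters, the melanocortin and endothelin receptors of the lineage, and the transcription factor PAX3. Erbb3 encodes a neuregulin receptor that epithelial cells also use. Across both lists the promoters open in all 3 libraries were thus those of Dct, Erbb3 and, at the start of Cdk2, Pmel. Of all genes, 35.2% had a promoter peak in all 3.

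Genes of signals sent to melanocytes were partly open. Of 6 such genes, promoter peaks stood at 3 in WT, 2 in KO replicate 1 and 3 in KO replicate 2. Kitl, the ligand of KIT, and Edn2, an endothelin made by hair follicle cells, had one in all 3 libraries. The Kitl summit held 15, 10 and 31 tags and the Edn2 summit 21, 5 and 11 tags, in the same order. Edn1 had one in every library but KO replicate 1, and Edn3, Pomc and Asip (listed as a in the annotation) had none. These shares were close to those of all genes.

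Other cells that use some of the same genes were also checked. None of 4 mast cell genes (Cpa3, Mcpt4, Cma1 and Ms4a2), which share Kit, and none of 7 leukocyte genes (Ptprc, Cd3e, Cd207, Itgam, Csf1r, Lyz2 and Cd74) had a promoter peak. Of 8 dermal fibroblast and endothelial genes the numbers in the same order were 2, 1 and 4, with none of them open in all 3 libraries. Pdgfra and Col1a1, genes of fibroblasts, had a promoter peak in WT and in KO replicate 2, the collagen gene Col1a2 in both KO libraries and the endothelial receptor gene Kdr in KO replicate 2, while Lum, Dcn, Pecam1 and Cdh5 had none. Of 7 genes of other organs the numbers were 1, 0 and 1, in each case Apoa1, and Alb, Ins2, Crx, Myh6, Gfap and Umod were open in none. All genes of these 4 lists but Kdr have low-CpG promoters, a class with shares of 17.4%, 12.4% and 21.1%, so an absence of peaks in lists of 4 and 7 genes was close to that share, and the dermal and endothelial count of 4 of 8 in KO replicate 2 lay above it. Whether other cells contributed to the Dct signal was not tested.

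**Figure D4:**
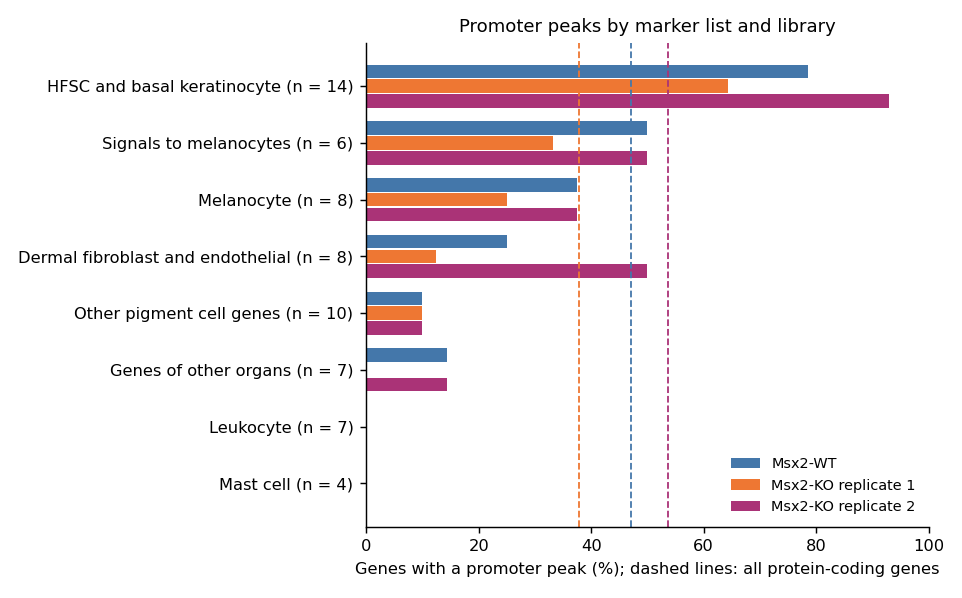
Share of the genes of each marker list with a promoter peak, in percent, for each library. Dashed lines give the share of all protein-coding genes (47.1% for WT, 37.9% for KO replicate 1 and 53.7% for KO replicate 2). The HFSC and basal keratinocyte genes, 6 of 14 of them low-CpG, lie above the lines, and the melanocyte genes, 6 of 8 of them low-CpG, lie below these lines but not below the lower shares of low-CpG genes.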

How the data were processed

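A peak list was used for each of the 3 Omni-ATAC-seq libraries. As the methods describe it, reads were trimmed (Trimmomatic) and mapped to GRCm38 (BWA-MEM), and the authors ran MACS2 on every library with no shifting model, retaining duplicates, so tags are not independent molecules. The MACS2 version is not given in the sources used here. The authors deposited for each summit a fold (tags plus 1 over local background plus 1) and −log10 p and −log10 q values. The methods name a q-value limit of 0.01, whereas the deposited lists reach down to a p-value of 0.01, and −log10 q above 2.0 was required here.

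Tag numbers were solved as the whole number that fits the fold and the −log10 p within 0.006, for at least 99.98% of summits per library, and checked on simulated data. Summits were placed against GENCODE M21 basic transcripts of GRCm38 on chromosomes 1 to 19, X and Y. Mitochondrial summits were left out. All 8 genes were named, with every promoter peak and the strongest summits of each window. Of the other lists, members open in all libraries or in none were named, with further genes chosen after their values were seen. Some comparison genes are not reported here. The genes and lists were chosen with earlier results of these data known. No p-value was computed. Alternatives were other limits, lists of equal length (the 19450 strongest summits by −log10 p), other windows and starts, any overlap of the interval, leaving out peaks near other genes, and leaving out each KO replicate. Software was pandas 2.3.3, numpy 2.4.6, matplotlib 3.10.9 and scipy 1.17.1 under Python 3.11.15.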

Additional observations from a re-analysis of the deposited data

How the results depend on the processing

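The counts of melanocyte genes moved under the following settings, and where no cause follows from the setting itself the cause was not tested. With a promoter window of 500 bases 1 gene was counted in WT (Mitf), 1 in KO replicate 1 (Dct) and 2 in KO replicate 2 (Mitf and Dct). With peaks near other starts left out, promoters numbered 2, 1 and 2 in the 3 libraries in order, and windows 2 in each. At a −log10 q of at least 5, promoters in KO replicate 2 and windows in KO replicate 1 numbered 2. Lists of equal length gave 2 promoters in KO replicate 2. With every deposited peak, promoters numbered 4 in WT and 5 in KO replicate 2, and windows 7 in WT and 6 in KO replicate 2. With 50 kb before the gene, windows with a peak numbered 5 in each library, with Sox10 and Mlana added. No gene had a promoter peak in WT and in neither KO library; leaving out a KO replicate gave 0 to 1, with Mitf counted without replicate 2. The opposite counts stayed at 0.

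Among the other lists, every deposited peak gave 3, 2 and 5 other pigment cell genes in the 3 libraries in order, 1 leukocyte gene in KO replicate 2, and 5 and 2 dermal genes in WT and KO replicate 1. A −log10 q of at least 5 gave 1 signal gene in WT and 0 in KO replicate 1, 2 HFSC genes in KO replicate 1, 0 and 2 dermal genes in KO replicates 1 and 2, and 0 genes of other organs in every library. Lists of equal length gave 1 signal gene and 0 genes of other organs, both for WT and for KO replicate 2, and 2 dermal genes for KO replicate 2. Among low-CpG promoters the share of all genes was 17.4%, 12.4% and 21.1%. No paired analysis was possible because the groups share 1 replicate number and no test was run. The low depth of KO replicate 1 limits what its list can show.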

Other observations

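Among the other pigment cell genes, peaks past the limit away from the start were found in several windows, and these genes were picked after their values were seen. Trpm1, a cation channel gene of melanocytes and retina, had a peak in intron 1 with 30 tags at 1873 bases from the nearest start in WT and 13 tags at 1935 bases in KO replicate 2, with none in KO replicate 1. Oca2, a melanosome transporter gene, had a peak in intron 21 with 11 tags in WT, 180072 bases from its start, and 17 tags in KO replicate 2, 180170 bases from it. Erbb3 had, beside its promoter peak of 40, 9 and 15 tags, a further peak inside the gene in all 3 libraries, with 27, 6 and 14 tags in WT and KO replicates 1 and 2. The single Slc45a2 window peak shared by all 3 libraries lay 70, 17 and 22 bases from the start of its neighbour Amacr, much as the Pmel peak lay at Cdk2.

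Kitl, the ligand of KIT, had a peak in intron 2 in both KO libraries, 44883 bases from its start with 8 tags in replicate 1 and 45429 bases with 20 tags in replicate 2. No WT summit past the limit was found there. The opposite also occurred: a peak in intron 1, 15305 bases from the start, held 10 tags in WT, with none past the limit there in either KO library. How often distal peaks differ in these ways across the genome was not computed.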
